A study of Homo sapiens with 6 samples.

Results

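The replicative DNA polymerases and primase were taken as 10 genes chosen by their symbols, subunits of polymerase alpha-primase (POLA1, POLA2, PRIM1, PRIM2), polymerase delta (POLD1, POLD2, POLD3) and polymerase epsilon (POLE, POLE2, POLE3). The set was chosen with earlier results of these data known. All 10 were listed in the tables of every library, among 11886 genes that were. The libraries came from U2OS, an established human osteosarcoma line, held with 4 mM hydroxyurea for 24 h and then released. Cells transfected with siRNA against E2F7 (siE2F7) or with a non-targeting control siRNA (siNT) were taken at 0 h after release, given as G1/S, at 3 h, given as S phase, and at 12 h, given as the G2/M boundary, with 1 library for each arm and time, 6 in all. Both arms had therefore been transfected and exposed to hydroxyurea, and no unsynchronized cells were compared.

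The nuclear genome is copied by polymerases alpha, delta and epsilon. Polymerase alpha-primase lays down a short RNA-DNA primer, polymerase epsilon extends it along the leading strand, and polymerase delta does so on the lagging strand, in pieces. E2F factors activate many genes of DNA synthesis at the entry into S phase, and E2F7, an atypical member of the family, represses such genes later in the cycle. The comparison asks which subunit transcripts depended on E2F7, and when.

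To show what lies in front of these genes, the RefSeq start site windows (GRCh38.p14) were searched on both strands for the E2F consensus, spelled out as TTTCCCGC, TTTCGCGC, TTTGCCGC and TTTGGCGC. The windows reach from 250 bases before a start site to 50 after it, and 9 members had an entry, with none for POLD3. A match was found for 4 of these 9, POLA1, POLA2, POLE and POLE2, against 3.99% of all 27305 genes in the table, 3.31% of its 35116 windows and 6.90% of the 9079 tested genes that had a window. A match is a run of letters and not a measured binding site. Only these exact spellings were searched, so a window without a match may still hold a close variant. The printed PRIM1 sequence holds gttcccgc, which differs from TTTCCCGC only in its first letter. That of POLA2 also holds tttggcgg, which differs from TTTGGCGC only in its last letter. Such variants were not counted in the other windows. The 150 bases before the start site are printed for the members with a whole match there (POLA1, plus strand, chrX:24693768-24693917; POLA2, plus strand, chr11:65261812-65261961; POLE, minus strand, chr12:132687343-132687492), and for PRIM1 (minus strand, chr12:56752324-56752473), which rose with siE2F7 although its window held none. POLD1, whose windows held no match either, also rose and is not printed. For POLE2 (minus strand, chr14:49688210-49688239) the match crosses the start site, so 25 bases before it and 5 from it on are given. All read 5′ to 3′ towards the gene, and capitals mark the match, in either orientation.
POLA1: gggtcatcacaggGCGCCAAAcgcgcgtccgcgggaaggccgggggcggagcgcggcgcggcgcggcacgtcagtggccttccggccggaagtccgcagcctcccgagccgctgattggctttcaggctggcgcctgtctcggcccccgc
POLA2: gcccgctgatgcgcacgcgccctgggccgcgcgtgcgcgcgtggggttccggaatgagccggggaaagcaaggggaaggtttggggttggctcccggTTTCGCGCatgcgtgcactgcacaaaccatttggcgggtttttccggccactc
POLE: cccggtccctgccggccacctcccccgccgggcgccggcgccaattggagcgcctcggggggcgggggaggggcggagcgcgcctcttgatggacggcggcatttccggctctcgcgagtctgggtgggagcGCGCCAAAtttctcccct
PRIM1: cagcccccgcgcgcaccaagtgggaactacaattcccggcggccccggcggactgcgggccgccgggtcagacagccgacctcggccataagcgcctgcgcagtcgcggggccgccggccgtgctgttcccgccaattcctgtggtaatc
POLE2: ggggcggagctgcggcggtgGCGCCAAAtc

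The match ran from base -137 to -130 in POLA1, from -53 to -46 in POLA2 and from -18 to -11 in POLE, counted back from the start site, and from -5 to 3 in POLE2. POLA2 thus held a match although it did not pass the test for a rise with siE2F7. The letters CCAAT were found in the windows of POLA1, PRIM1, POLD2 and POLE, against 39.7% of all genes in the table and 43.4% of the tested genes with a window. The cell cycle element TTTGAA was found only in a window of POLE3 among the 9 members, against 18.2% of all genes and 13.3% of the tested genes with a window. POLE3 had several windows.

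Levels are given in FPKM, fragments scaled to the length of the transcript and the size of the library, so that levels of different genes can be compared. The files hold no counts, and the depth behind each value is unknown. E2F7 itself stood at 20.3, 29.4 and 16.6 FPKM in siNT and at 9.48, 10.6 and 5.52 FPKM in siE2F7 at 0, 3 and 12 h. Each siE2F7 library thus lay below the siNT library of its time, so the targeted transcript went the way its label says, and it was reduced but not removed. The mesenchymal genes VIM (759 to 886 FPKM), COL1A1 (261 to 376) and SPARC (401 to 528) were abundant in all 6 libraries. Of 8 lineage genes, 6 were listed at all times and 2 of them fell, the bone genes ALPL (-0.37, limma, adjusted p = 0.043) and TNFRSF11B (-0.56, 0.029), while the osteoblast factor RUNX2 stood at 2.83 to 4.6002 FPKM and SP7 and COL1A2 were not tested. Of 7 blood cell markers, 1 was listed at all times (LAPTM5, 1.64 to 2.47 FPKM in siNT and 0.937 to 1.79 FPKM in siE2F7). Of 5 epithelial markers, 3 were (EPCAM, KRT8 and KRT18, without CDH1 and KRT19), with EPCAM at 2.33 to 3.27 FPKM. KRT8 (-0.39, limma, adjusted p = 0.023) and KRT18 (-0.34, 0.044) fell, and their rows overlap each other. The 3 summed to 238 to 299 FPKM in siNT and 199 to 221 FPKM in siE2F7, and the part of such cells in the results was not tested.

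Across the 3 times, 6 of the 10 members rose in siE2F7 and 0 fell (limma on log2(FPKM + 0.1), Benjamini-Hochberg over all genes, 7 and 0 at an unadjusted p under 0.05). Those that rose were POLA1, PRIM1, POLD1, POLD3, POLE and POLE2, by 1.31-fold to 1.58-fold, while POLA2, PRIM2, POLD2 and POLE3 did not pass. Without the libraries of 3 h, 3 passed (POLA1, POLD3 and POLE), and in a fit that did not pair the arms by time 0 did (limma, 6 at an unadjusted p under 0.05). Of all 11886 genes, 6.76% rose and 7.13% fell in the same fit. The median log2 change was 0.42 over the members and -0.03 over all genes. The siE2F7 library was above the siNT library at every time for 9 of the 10, against 22.8% of all genes. For 3 of the 10, POLD1, POLE and POLE2, each siE2F7 library was also above each siNT library whatever its time, against 6.88% of all genes. The members were chosen with earlier results of these data known, so these shares describe the set and are no blind test. The fit takes time as a block, and the repeats behind each p-value are the 3 paired times. On simulated data the fit gave more false calls than the threshold aims for, so calls near the threshold are the least secure. No label says whether the times are separate experiments, and the p-values cover just the spread among the 6 libraries, which may be technical. In bulk RNA, more cells in S phase and more RNA per cell cannot be told apart.

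**Figure D1:**
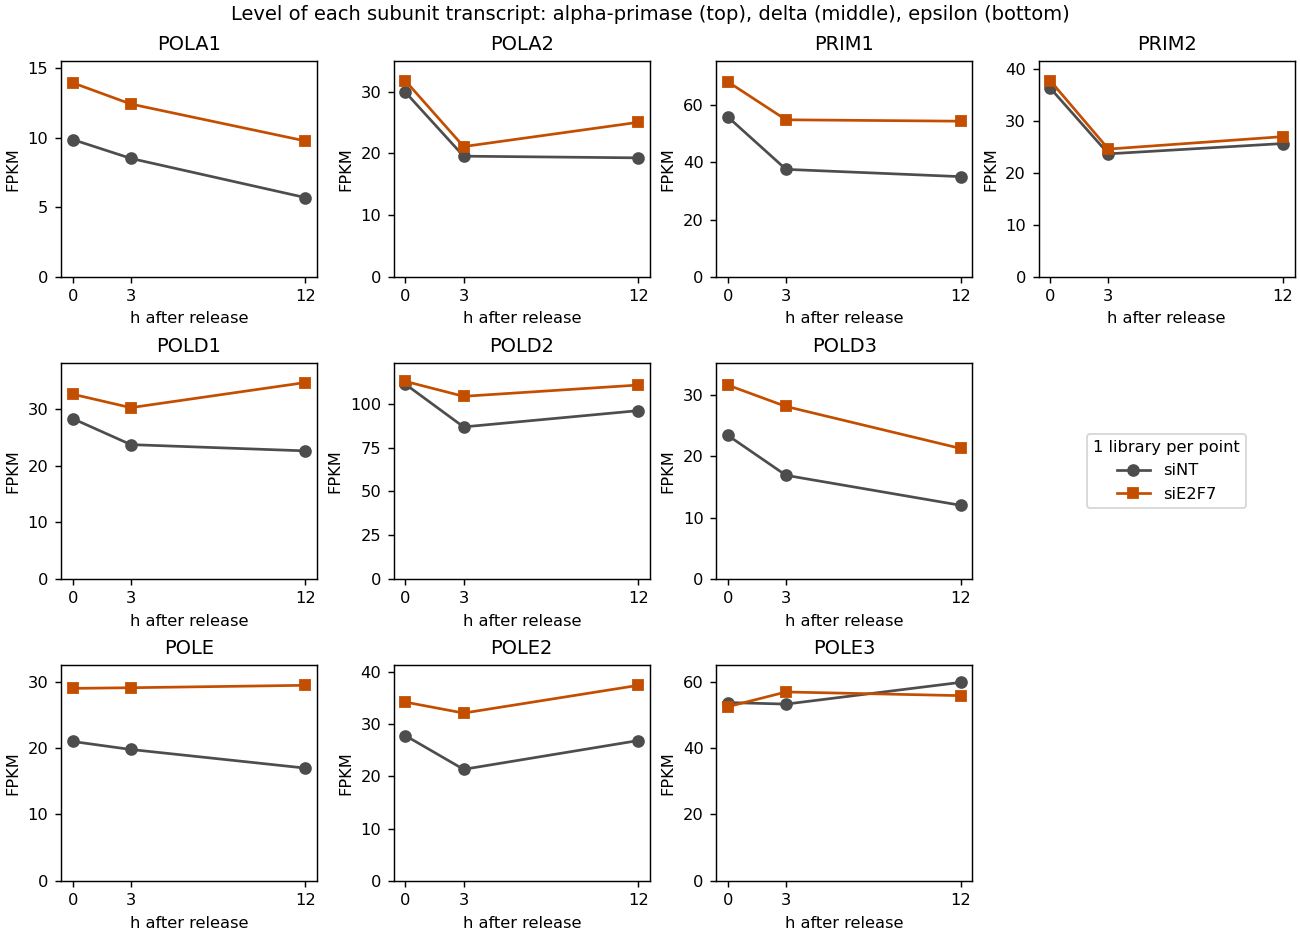
FPKM (y axis, from 0) of each member against hours after release (x axis), with 1 library per point, siNT in grey circles and siE2F7 in orange squares. The siE2F7 points of POLA1, PRIM1, POLD1, POLD3, POLE and POLE2 lie above siNT at all 3 times, while the lines of PRIM2 nearly coincide and those of POLE3 cross.

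In polymerase alpha-primase, the catalytic subunit of the polymerase and that of the primase rose, and their partners did not pass. POLA1 (hg19, chromosome X, 24712064 to 25015102), which extends the RNA primer with DNA, stood at 9.86, 8.50 and 5.68 FPKM in siNT at 0, 3 and 12 h. In siE2F7 it stood at 13.9, 12.4 and 9.75 FPKM. The arms were apart at each time, but the siE2F7 library of 12 h was slightly below the siNT library of 0 h. The log2 change was 0.60 ± 0.09 (SE; limma, adjusted p = 0.0066).

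PRIM1 (chromosome 12, 57125364 to 57146146), the primase subunit that makes the RNA, had 56.0, 37.6 and 35.05 FPKM in siNT and 68.3, 55.0 and 54.5 FPKM in siE2F7. It fell after 0 h in both arms, and less so in siE2F7, whose 3 h and 12 h libraries lay just under the siNT library of 0 h. Its log2 change was 0.49 ± 0.08 (SE; limma, adjusted p = 0.00997), and without the libraries of 3 h it was 0.46, with an adjusted p of 0.051 (limma).

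POLA2 (chromosome 11, 65029432 to 65065088), the accessory subunit that tethers the complex to the replication machinery, had 29.9, 19.5 and 19.3 FPKM in siNT and 31.7, 21.1 and 25.02 FPKM in siE2F7. The arms lay close at 0 and 3 h and apart at 12 h, and the log2 change of 0.19 ± 0.08 did not pass (SE; limma, adjusted p = 0.16). PRIM2 (chromosome 6, 57182422 to 57513376), the large primase subunit that binds an iron-sulfur cluster, had 36.3, 23.7 and 25.7 FPKM in siNT and 37.8, 24.6 and 27.0 FPKM in siE2F7. Both arms moved together over time, and the log2 change was 0.06 ± 0.06 (SE; limma, adjusted p = 0.57). RefSeq lists a pseudogene copy, PRIM2BP, and how reads were shared between copies is not given in the sources used here, so the level of PRIM2 is uncertain.

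In polymerase delta, POLD3 had the widest difference of all 10 members. POLD3 (chromosome 11, 74303629 to 74353765), the subunit that helps bind the PCNA clamp, had 23.4, 16.9 and 12.0 FPKM in siNT and 31.7, 28.2 and 21.3 FPKM in siE2F7. It declined in both arms, and the siE2F7 library of 12 h still lay below the siNT library of 0 h. The log2 change was 0.66 ± 0.09, or 1.58-fold (SE; limma, adjusted p = 0.0048).

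POLD1 (chromosome 19, 50887593 to 50921271), the catalytic and proofreading subunit, had 28.4, 23.8 and 22.6 FPKM in siNT and 32.7, 30.3 and 34.7 FPKM in siE2F7. The lowest siE2F7 library was above the highest siNT library, and the gap was smallest at 0 h. The log2 change was 0.39 ± 0.09 (SE; limma, adjusted p = 0.030), the smallest among the 6 that passed. The call was lost without the libraries of 3 h (0.41, limma, adjusted p = 0.094) and without those of 12 h (0.28, limma, adjusted p = 0.094).

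POLD2 (chromosome 7, 44154286 to 44163147), the scaffold between the catalytic subunit and POLD3, was the most abundant member. It had 111, 86.8 and 96.1 FPKM in siNT and 113, 104 and 111 FPKM in siE2F7, so the arms overlapped. The log2 change was 0.16 ± 0.07 (SE; limma, adjusted p = 0.18), and RefSeq lists a pseudogene of this gene as well, POLD2P1.

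In polymerase epsilon, POLE and POLE2 rose, and POLE3, which is shared with a chromatin remodelling complex, did not pass. POLE (chromosome 12, 133200348 to 133263945), the catalytic and proofreading subunit, had 21.0, 19.8 and 17.0 FPKM in siNT and 29.0, 29.1 and 29.5 FPKM in siE2F7. It was level across the siE2F7 libraries, and each lay above each siNT library. The log2 change was 0.60 ± 0.08, or 1.52-fold (SE; limma, adjusted p = 0.0049).

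POLE2 (chromosome 14, 50110270 to 50155098), the second subunit, which joins the polymerase to the helicase, had 27.8, 21.3 and 26.9 FPKM in siNT and 34.2, 32.1 and 37.4 FPKM in siE2F7. The arms did not overlap, and 3 h was the lowest time in both. Its log2 change was 0.45 ± 0.08 (SE; limma, adjusted p = 0.011), and 0.39 with an adjusted p of 0.061 (limma) without the libraries of 3 h.

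POLE3 (chromosome 9, 116169518 to 116191879), a histone-fold subunit, had 53.7, 53.2 and 59.8 FPKM in siNT and 52.5, 56.9 and 55.8 FPKM in siE2F7. The arms crossed, and the log2 change was -0.01 ± 0.07 (SE; limma, adjusted p = 0.92), a value whose sign turned when libraries were centred on their medians. The row of POLE3 spans 22362 bases, where RefSeq gives the gene 3515 bases in GRCh38. Whether reads of a neighbouring gene entered its value was not tested.

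**Figure D2:**
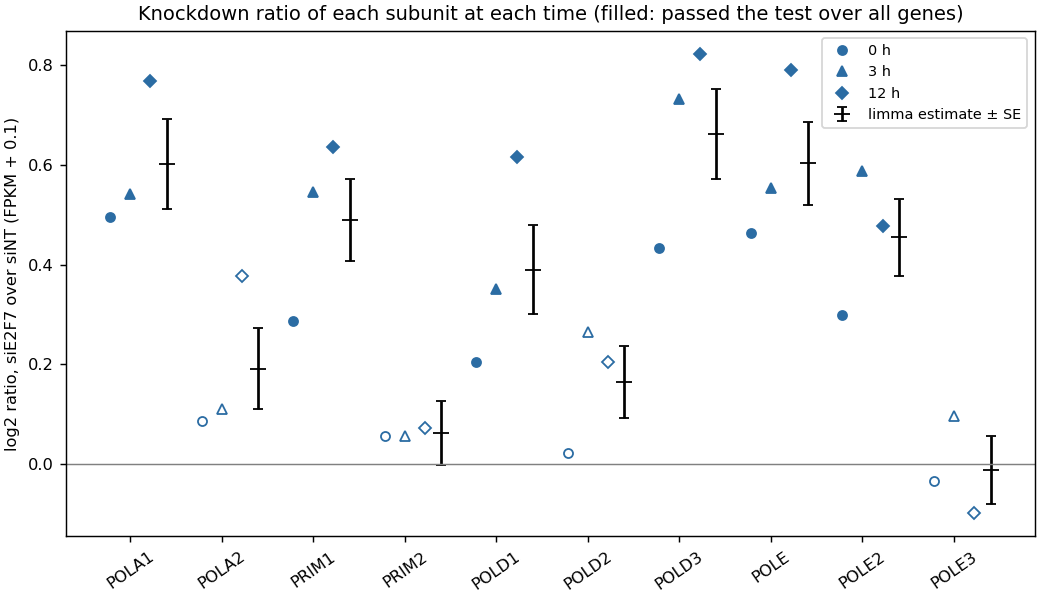
The log2 ratio of siE2F7 over siNT (y axis, FPKM + 0.1) for each member (x axis) at 0 h (circles), 3 h (triangles) and 12 h (diamonds), with the limma estimate and its SE in black. Filled points mark the 6 members that passed, whose 3 ratios all lie above 0.20, and open points the 4 that did not.

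The signed log2 ratio of siE2F7 over siNT was higher at 12 h than at 0 h for 9 of the 10 members, against 48.8% of all genes, and higher at 3 h than at 0 h for 9 of the 10, against 53.9%. The exceptions were POLE3 at 12 h, whose ratio was below 0 at both times and lower at 12 h, and PRIM2 at 3 h. The median log2 ratio of the members was 0.25, 0.45 and 0.55 at 0, 3 and 12 h, beside medians of -0.04, 0.00 and -0.04 over all genes. At 12 h the highest ratios were those of POLD3 (0.82), POLE (0.79), POLA1 (0.77), PRIM1 (0.64) and POLD1 (0.62). POLE2 was highest at 3 h, at 0.59 against 0.48 at 12 h. E2F7 itself had log2 ratios of -1.09, -1.46 and -1.57 at 0, 3 and 12 h, so its own reduction was deeper at the later times. Its part in the course of the members was not tested, nor was that course counted in other replication genes. Each single time sets 1 library against 1, so these ratios have no replicate check and no test.

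Over time in siNT, every member was lower at 3 h than at 0 h, and 9 of the 10 were lower at 12 h than at 0 h, all but POLE3. Of all genes, 61.3% and 54.1% were lower in these comparisons. By 12 h the siNT level was 51.2% of that at 0 h for POLD3, 57.6% for POLA1, 62.6% for PRIM1 and 64.4% for POLA2, while POLE2 kept 96.6% and POLE3 was at 111%. In siE2F7, 8 members were lower at 3 h and 6 at 12 h than at 0 h, against 57.2% and 55.4% of all genes. There POLD3 stood at 67.3%, POLA1 at 69.99% and PRIM1 at 79.8% of the 0 h level by 12 h, and POLE, POLE2 and POLD1 at 102%, 109% and 106%. The median log2 difference of the members between 12 h and 0 h was -0.41 in siNT and -0.18 in siE2F7. Whether the tables of the 3 times were scaled together is not stated, so times are set side by side without a test.

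Of the genes taken as marks of the stage of the cycle, those of G1/S rose too, while those of G2 and mitosis did not pass. Whether the rise of the G1/S genes reflects the stage of the cells was not tested. The part of either set in the members' difference was not tested. All 4 G1/S genes examined (CCNE1, CCNE2, CDC6, CDC25A) rose with siE2F7, against 6.76% of all genes. Among them was CCNE2, with 28.6, 17.3 and 3.91 FPKM for siNT at the successive times and 60.4, 55.8 and 14.7 FPKM for siE2F7. Its row overlaps that of INTS8. The 4 together summed to 84.6 to 225 FPKM in siNT and 152 to 380 FPKM in siE2F7. Of 6 genes of G2 and mitosis (CCNB1, CDC20, PLK1, AURKA, BUB1, CENPF), 0 passed in either direction by limma (2 higher and 1 lower at an unadjusted p under 0.05). The shares of all genes that passed were 6.76% higher and 7.13% lower. They summed to 286 to 714 FPKM in siNT and 251 to 845 FPKM in siE2F7. PLK1, the mitotic kinase, went from 23.9 FPKM at 0 h to 81.6 FPKM at 12 h in siNT, and from 19.6 to 109 FPKM in siE2F7.

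Since all values of a library share its scaling, ratios between subunits within a library are free of it. The ratio of PRIM2 to POLA1 was 3.69, 2.79 and 4.52 in siNT and 2.71, 1.98 and 2.77 in siE2F7, so that every siE2F7 library lay below every siNT library. Within the primase, the ratio of PRIM1 to PRIM2 was 1.54, 1.59 and 1.37 in siNT and 1.81, 2.24 and 2.02 in siE2F7, a log2 difference of 0.43 ± 0.17 (SD over 3 times). The catalytic subunit of the primase thus gained on its partner at each time.

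In polymerase delta, the ratio of the scaffold POLD2 to POLD3 was 4.74, 5.13 and 8.001 in siNT and 3.56, 3.70 and 5.20 in siE2F7. It was lower in siE2F7 at each time, by a log2 difference of -0.50 ± 0.11 (SD over 3 times), and higher at 12 h than at 0 h in both arms. In polymerase epsilon, the ratio of POLE3 to POLE was 2.56, 2.69 and 3.52 in siNT and 1.81, 1.95 and 1.89 in siE2F7, a log2 difference of -0.62 ± 0.24 (SD over 3 times). The arms did not overlap.

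The ratio of POLA1 to POLE, the catalytic subunits of 2 different polymerases, was 0.469, 0.429 and 0.334 in siNT and 0.480, 0.426 and 0.331 in siE2F7. The log2 difference was 0.00 ± 0.03 (SD over 3 times), although each of the pair rose. Each log2 difference restates the gap between the log2 changes of its 2 members given above, and is no separate evidence. For pairs within a complex in which both passed, the arms overlapped. There the log2 difference was -0.12 ± 0.11 for PRIM1 over POLA1, 0.27 ± 0.10 for POLD3 over POLD1 and -0.15 ± 0.18 for POLE2 over POLE (SD over 3 times). These differences between subunits are described without a test. For a single value, an exact two-sided sign-flip test over 3 paired times cannot go below p = 0.25.

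**Figure D3:**
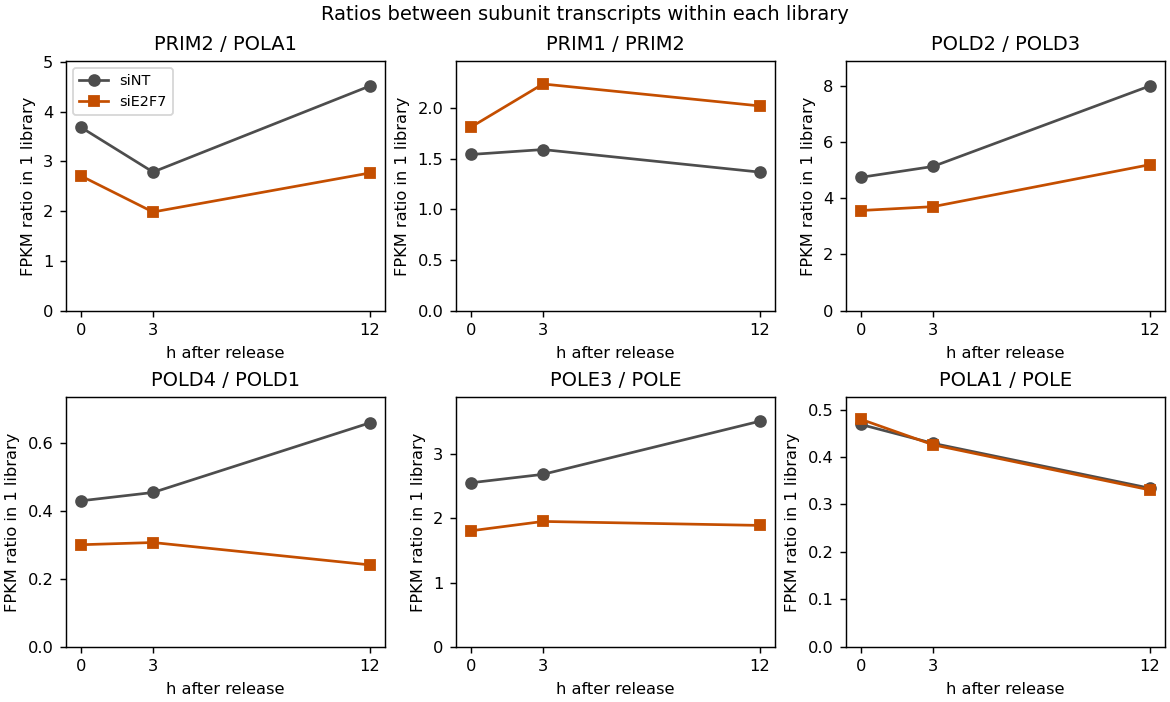
Ratio of the FPKM of 1 subunit to that of another in the same library (y axis, from 0) against hours after release (x axis), siNT in grey circles and siE2F7 in orange squares. PRIM2 over POLA1, POLD4 over POLD1 and POLE3 over POLE are lower in every siE2F7 library than in any siNT library, whereas POLA1 over POLE nearly coincides between the arms.

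By level, the members fell into an order led by POLD2, with a mean of 104 FPKM over the 6 libraries, above POLE3 (55.3) in each library and with no overlap of their ranges. PRIM1 (51.1) was below POLE3 in 4 libraries and above POLE2 (29.97) in all 6. POLE2, PRIM2 (29.2), POLD1 (28.7), POLA2 (24.4) and POLE (24.2) had overlapping ranges, and neighbours in this order could not be told apart by their spread. POLD3 (22.3) followed, below POLE in 4 libraries and with overlapping ranges, and POLA1 (10.02) was lowest in each library. By arm means the order turned between the arms, but not at each time. POLE3 was above PRIM1 in siNT (55.6 and 42.9 FPKM) and below it in siE2F7 (55.1 and 59.2). Yet PRIM1 was above POLE3 at 0 h in both arms, and below it at 3 and 12 h in both. By arm means PRIM2 was likewise above POLE2 in siNT (28.6 and 25.3) and below it in siE2F7 (29.8 and 34.6), as was POLA2 with POLE (22.9 and 19.3, then 25.9 and 29.2). At 0 h PRIM2 was above POLE2, and POLA2 above POLE, in both arms. Within siNT the order also turned, with POLE2 (26.9) above PRIM2 (25.7) at 12 h and POLE (19.8) above POLA2 (19.5) at 3 h. The spread across libraries was widest for POLD3 and POLA1, whose highest value was 2.64 and 2.45 times the lowest, and narrowest for POLE3, at 1.14 times.

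The smallest subunits of delta and epsilon, POLD4 and POLE4, are not among the 10. POLD4 had 12.2, 10.8 and 14.9 FPKM in siNT and 9.81, 9.29 and 8.37 FPKM in siE2F7, lower in each siE2F7 library than in any siNT library. Its log2 change was -0.45 ± 0.12 (SE; limma, adjusted p = 0.054), and its row overlaps that of CLCF1 and spans 73849 bases where RefSeq gives 2832, so its level is uncertain. The ratio of POLD4 to POLD1 was 0.429, 0.454 and 0.659 in siNT and 0.300, 0.307 and 0.241 in siE2F7. POLE4, the histone-fold partner of POLE3, had 24.0, 22.6 and 22.4 FPKM in siNT and 28.7, 26.6 and 26.2 FPKM in siE2F7, with a log2 change of 0.24 ± 0.07 (SE; limma, adjusted p = 0.052). Neither passed, and both lay so near the threshold that quantile normalization called both (limma, adjusted p = 0.048 for each). POLE4 alone was also called with a pseudocount of 1 and with median centring (limma, adjusted p = 0.0499 and 0.040). POLD4 and POLE4 were not called without the variance trend (limma, adjusted p = 0.12 and 0.11) or without the time block (0.38 and 0.48). Nor was either called when the libraries of any 1 time were left out. CHRAC1, BAZ1A and SMARCA5, which meet POLE3 in chromatin remodelling complexes, had log2 changes of 0.20, 0.15 and 0.24 (limma, adjusted p = 0.10, 0.34 and 0.062).

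Genes whose products load, tether or contact these polymerases at the fork often rose too. Of 24 tested, 16 rose and 0 fell, against 6.76% and 7.13% of all genes, with a median log2 change of 0.41 beside -0.03 over all genes (limma, 17 and 1 at an unadjusted p under 0.05). GINS2, of the replicative helicase, had 52.1, 34.5 and 22.1 FPKM for siNT and 116, 106 and 83.4 FPKM for siE2F7, a log2 change of 1.56 ± 0.13 (SE; limma, adjusted p = 0.0011). CDC45, also of the helicase, rose by 1.13 ± 0.10 and PCNA, the sliding clamp, by 1.10 ± 0.14 (SE; limma, adjusted p = 0.0015 and 0.0042), and the row of PCNA overlaps PCNA-AS1. All 5 clamp loader subunits, RFC1 to RFC5, passed, with log2 changes of 0.60, 0.64, 0.43, 0.72 and 0.36, and RFC4 shares its locus with EIF4A2 and several small RNAs. Without the libraries of 3 h, 10 of the list passed. This list, too, was chosen with earlier results of these data known.

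Of 13 tested genes of repair, translesion and mitochondrial polymerases, 1 rose and 2 fell, near the background of 6.76% and 7.13% over all genes, with a median log2 change of 0.09 beside -0.03 over all genes. The one that rose was MAD2L2, a subunit of translesion polymerase zeta, at 0.35 ± 0.08 (SE; limma, adjusted p = 0.026), a call lost without the libraries of 3 h (limma, adjusted p = 0.11) or 12 h (0.061). POLB, the base excision repair polymerase, had -0.42 ± 0.11 and POLG2, of the mitochondrial polymerase, -0.36 ± 0.10 (SE; limma, adjusted p = 0.039 and 0.047). POLB was not called when the libraries of any 1 time were left out (limma, adjusted p = 0.10, 0.051 and 0.12 without 0, 3 and 12 h), nor POLG2 without 0 or 3 h (0.15 and 0.18) or with genes listed at any time (0.053), quantile normalization (0.054), median centring (0.058) or no variance trend (0.089). Among 27 RNA polymerase subunits, 1 rose (POLR3F, 0.55 ± 0.09) and 3 fell, POLR3G (-0.74 ± 0.15), POLR3E (-0.35 ± 0.09) and POLR1B (-0.33 ± 0.08; SE), with a median of -0.02. POLR3F and POLR3G lost their calls without the libraries of 3 h (limma, adjusted p = 0.061 and 0.052), and POLR3E without those of any 1 time or with genes listed at any time (0.055). Without the variance trend MAD2L2, POLB, POLR3E and POLR3G were not called either (limma, adjusted p = 0.086, 0.086, 0.10 and 0.065), and without the time block MAD2L2, POLB, POLG2, POLR3E, POLR3F and POLR3G were not. POLR1B, which fell with an adjusted p of 0.035 (limma), was not called without the libraries of 12 h, without the variance trend or without the time block.

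**Figure D4:**
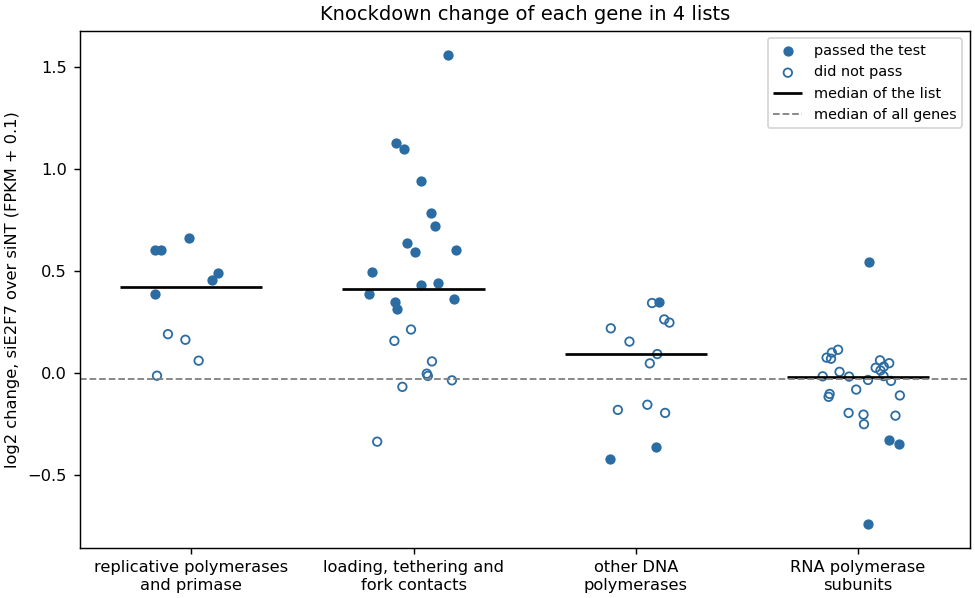
Log2 change of siE2F7 over siNT (y axis, limma, FPKM + 0.1) for each gene of 4 lists (x axis), filled where it passed the test over all genes, with the median of each list as a black bar and the median of all genes (-0.03) as a dashed line. The medians are 0.42, 0.41, 0.09 and -0.02 from left to right.

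Of 7 E2F genes tested, 4 rose, E2F7 fell, E2F4 and E2F6 did not pass, and E2F5 was not tested. E2F2, E2F8 and E2F1 rose by 3.51 ± 0.31, 1.63 ± 0.15 and 1.61 ± 0.17 (SE; limma, adjusted p = 0.0014, 0.0014 and 0.0023), and E2F3 by 0.44 ± 0.08 (adjusted p = 0.014). E2F1, E2F2 and E2F3 are activators, and E2F8 is the other atypical repressor. Their part in the levels of the polymerase genes was not tested.

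The genes whose profile over the 6 libraries lay nearest to the mean profile of the members were OIP5-AS1, PIGW, AGAP1, AKT1 and WIPF1, at Euclidean distances of 0.106 to 0.114 in centred log2 FPKM, out of 8883 genes that averaged 5 FPKM or more. They were picked as the nearest, so the distances of the members to their own mean, from 0.222 (POLD1) to 0.665 (POLE3), are given as a description only. Strand use in the counting is not stated, so OIP5-AS1 cannot be separated from its antisense partner.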

How the data were processed

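The 6 libraries were made from total RNA (TRIzol, RNeasy, TruSeq), per the labels' protocols. The deposited values are FPKM per gene, made by the authors. Per the submitters' processing notes, CASAVA 1.8 and the hg19 (GRCh37) build were used. No aligner, annotation or filter is given in the sources used here. Tables held 12799, 12475 and 12299 genes at 0, 3 and 12 h, and no counts, so depth is unknown. FPKM summed to 351305 to 375954 per library. The 3 tables shared 11886 of 13161 genes, and the shared ones were tested.

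From these, log2(FPKM + 0.1) was fitted with limma 3.58.1 (R 4.3.3), pairing the arms by time as a block and testing the arm, with a trended variance and Benjamini-Hochberg adjustment at 0.05 over all genes tested, two-sided. It had 2 residual and 5.41 prior degrees of freedom. This scale understates changes of low genes. The fit was tested on simulated data, where its false calls exceeded the share that the threshold aims for. Start positions are counted from 1; as deposited they were read as counted from 0, since 559 gene spans then equal those of RefSeq, against 111 otherwise. Promoter windows come from RefSeq (GRCh38.p14). Of the tested genes 76.4% had a window, under 80%, so motif shares were not compared between called and other genes. Members and lists were chosen with earlier results of these data known. Named are all members, E2F7, the small subunits and partners of POLE3, per list the 3 called genes of largest change, and the 5 nearest profiles. E2F3, E2F4, E2F6, cell cycle and lineage markers, RFC1 to RFC5 and POLR1B were named after their values were seen. The alternatives were 11 other settings, and the lists' counts under them were added after seeing the data.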

Additional observations from a re-analysis of the deposited data

Results flagged for a closer look

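POLE3 was the member whose ratio changed sign between times. Its log2 ratio of siE2F7 over siNT was -0.034 at 0 h, 0.096 at 3 h and -0.10 at 12 h, each from 1 library against 1. The difference between times was not tested.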

How the results depend on the processing

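All 6 calls among the members held with a pseudocount of 1 or 0.01, a minimum mean of 1 FPKM, genes listed at any time let in, quantile normalization and median centring, and no other member was called in any of the 11 settings. Without the variance trend, 4 of the 6 held: PRIM1 (0.49, limma, adjusted p = 0.051) and POLD1 (0.39, adjusted p = 0.089) did not, all genes gave 400 higher and 452 lower in place of 803 and 847, and the loading and helicase list gave 10. Without the time block (no paired times), 0 members passed by limma, with 6 at an unadjusted p under 0.05. POLA1 (0.60), PRIM1 (0.49), POLD1 (0.39), POLD3 (0.66), POLE (0.60) and POLE2 (0.45) then had adjusted p values of 0.43, 0.43, 0.31, 0.43, 0.096 and 0.27 by limma. Of all genes, 15 rose and 17 fell, and of the loading list 0 passed. That fit leaves differences between times in the residual. Leaving out the libraries of 1 time gave 3 to 6 members, 332 to 557 genes higher, 431 to 560 lower, and 10 to 13 of the loading list. The lowest counts came without 3 h. The log2 changes then ranged from 0.42 to 0.59 for PRIM1, 0.28 to 0.48 for POLD1, 0.39 to 0.53 for POLE2 and -0.067 to 0.031 for POLE3, the last sign turning without 12 h. Among the other DNA polymerases 0 to 3 rose and 0 to 2 fell over all settings, 3 after quantile normalization. POLE3 was also at 0.0049 after median centring. PRIM2, whose ratios differed little between times, moved by more than their spread at 0 h (0.075 after quantile normalization and 0.065 after median centring), at 3 h (0.025 after quantile normalization) and at 12 h (0.091 and 0.11). Unknown depth means that no counting error can be given for any value.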
